A study of Saccharomyces cerevisiae with 8 samples.

Results

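The genes described here are 35 iron and copper genes of budding yeast, chosen by name from 6546 features on the array: metal reductases, iron and siderophore uptake proteins, metal transporters, copper delivery proteins, the iron-sulfur scaffold and the iron regulators. Their transcripts were compared between 3 haploid strains of Saccharomyces cerevisiae SEY6210, MATα. The double mutant carried pdr5-∆1::hisG and yor1-1::hisG, disruptions of a pair of plasma membrane ABC transporter genes. It was hybridised on 4 arrays against wild type SEY6210 and on 4 other arrays against a triple mutant that carried pdr1::kanMX4 as well, PDR1 being the transcription factor of pleiotropic drug resistance. All 3 strains grew in the rich medium YPD and descend from a background with the markers his3-∆200, trp1-∆901 and ura3-52, together with suc2-∆9, GAL, lys2-801 and leu2-3,-112, which the labels write out for wild type. Each channel held RNA of a whole culture, so fewer cells carrying a transcript and less of it per cell cannot be told apart.

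Yeast takes up iron by several routes. Surface reductases of the FRE family reduce ferric iron and cupric copper, the ferroxidase Fet3 and the permease Ftr1 import the reduced iron together, and transporters of the ARN family import iron bound to siderophores, the iron carriers made by other microbes. The activator Aft1 switches these genes on when iron is scarce, Tis11 then brings down the messages of iron-using proteins, and Yap5 switches on the vacuolar iron importer Ccc1 when iron is plentiful.

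All 35 genes passed the filter on dim probes, and 6465 genes were tested in all. Median Cy5 signals of the 8 arrays lay between 401.7 and 1300.3 intensity units and median Cy3 signals between 116.9 and 1041.8. Array 4 of the comparison with wild type had the widest spread of log2 ratios (SD 0.458 over genes, against 0.183 to 0.279 on the other arrays). Array 2 of the double and triple mutant pair was the dimmest, and its brightness over genes correlated at 0.847 to 0.863 with the other arrays, for which the lowest correlation with each other was 0.977. The brightness of FTR1 on that array, less its mean over the arrays, was -2.89 log2 units, and the same difference was -2.86 for ARN1 and -3.03 for FIT3. Calls of the 35 genes that change without one of these arrays are given both ways. The α-cell genes STE3 and SAG1 lay between percentiles 89.0 and 94.1 of the probe signals, and the a-cell genes MFA1, MFA2, STE2, BAR1 and AGA2 between 5.42 and 38.2.

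The disrupted genes were read as a check of the labels. Values are log2 ratios fitted with limma to all 8 arrays, each with the SD over its 4 arrays, and p-values are from limma's moderated test after Benjamini-Hochberg adjustment over the 6465 genes. PDR5 was lower in the double mutant than in wild type, with a log2 ratio of -1.46 ± 0.227 (SD, n = 4) and an adjusted p of 0.000163, and YOR1 was higher (1.94 ± 0.180; adjusted p = 4.18e-06) although both are disrupted there. Where the probes lie relative to the hisG insertions was not analysed here, so a probe outside the removed stretch would check nothing. In the other comparison PDR1 went against the labels. Its log2 ratios, labelled double over labelled triple mutant, were -2.88, -1.12, -2.81 and -2.63. Its probes were well above background in all 4 channels labelled triple mutant and in none of the 4 labelled double mutant. PDR1 averaged 86 units in the channels labelled double mutant, against 390 units in those labelled triple mutant. Against wild type, PDR1 averaged 433 units in the double mutant and 420 units in wild type (0.05 ± 0.240; adjusted p = 0.924). YOR1 averaged 811 units in the channels labelled double mutant, against 2594 units in those labelled triple mutant (-1.67 ± 0.189; adjusted p = 1.80e-05), whereas in the first comparison it averaged 3053 units in the double mutant and 793 units in wild type. PDR5, disrupted in both mutants, was at -0.14 ± 0.160 (adjusted p = 0.565). Every direction in that comparison is therefore given as labelled, between the channel labelled double mutant and the channel labelled triple mutant, and turns in sign if the channel labels are exchanged.

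Against wild type, 6 of the 35 genes passed the test at an adjusted p of 0.05. FRE4, YAP5, ARN2 and SMF3 were higher in the double mutant, and FTR1 and ISU2 were lower. The share called over all genes tested was 8.21%, with 3.25% higher and 4.97% lower, so 6 of 35 is to be read against that background. The median log2 ratio of the 35 genes was 0.08, against -0.01 over all genes. The ratio had 1 sign on all 4 arrays in 13 of the 35 genes, or 37.1%, and in 25.2% of all genes; 8 of the 13 were higher in the double mutant and 5 lower. An unadjusted p under 0.05 was found for 13 of the 35 and for 24.6% of all genes. With the authors' processed signals none of the 6 passed, though FRE4 was at 1.29 (adjusted p = 0.0969) and FTR1 at -0.60 (adjusted p = 0.0899). FRE4 and ISU2 passed with median centring in place of loess, and FRE4 alone passed when the 4 arrays were fitted by themselves.

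**Figure D1:**
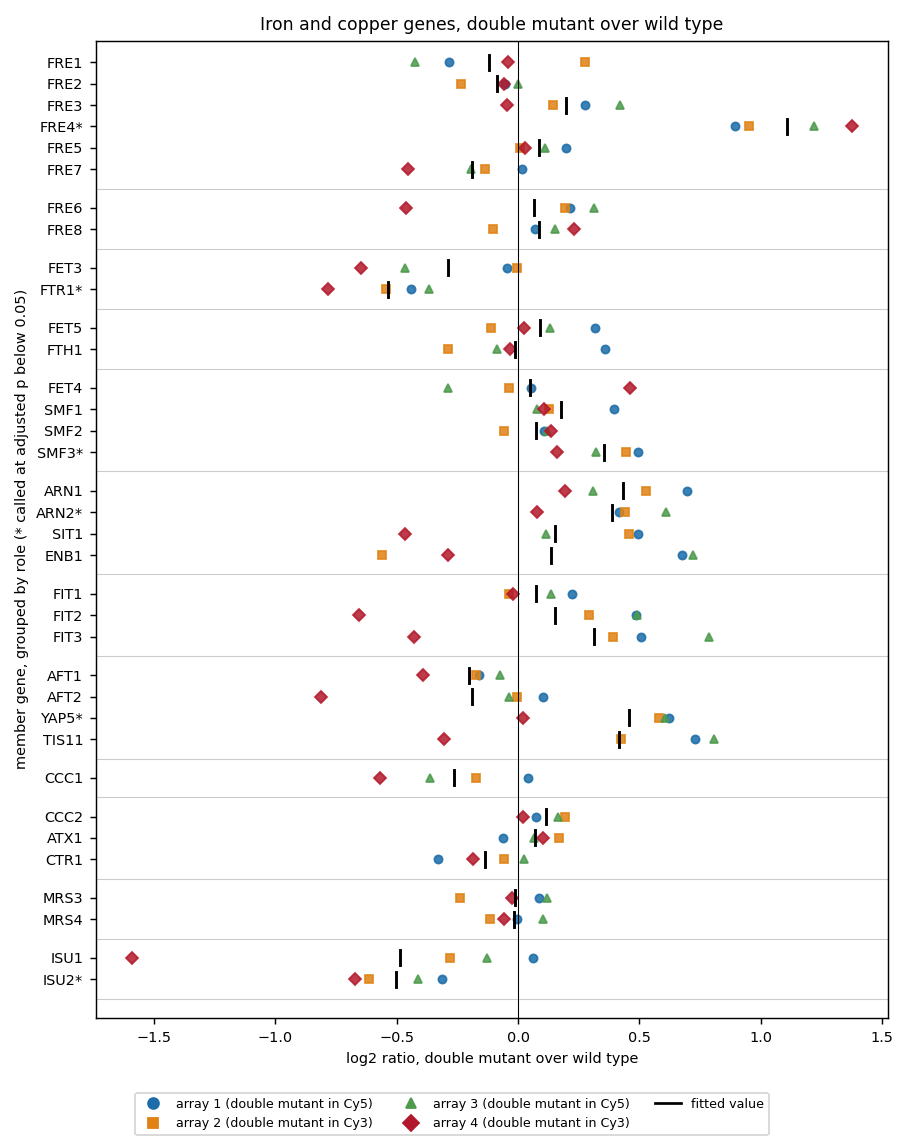
Log2 ratio of double mutant over wild type (x axis) for each of the 35 genes (y axis, grouped by role). Each coloured point is 1 of the 4 arrays, the black bar is the fitted value and a star marks genes called at adjusted p below 0.05; FRE4 lies farthest to the right at 1.11, FTR1 farthest to the left of the called genes at -0.53, and array 4 often stands away from arrays 1 to 3.

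Between the channel labelled double mutant and the channel labelled triple mutant, 4 of the 35 genes passed, with a background of 1.59% called over all genes, 1.05% higher and 0.541% lower. As labelled, FTR1 and ISU2 were higher in the double mutant channel, and FRE4 and YAP5 were lower. The median of the 35 genes was -0.01, against -0.00 over all genes. The ratio had 1 sign on all 4 arrays in 19 genes, or 54.3%, and in 25.3% of all genes; 7 of the 19 were higher and 12 lower as labelled. In 8 of the 35 (FTH1, FRE1, FRE6, FRE7, FIT1, AFT2, SMF2 and CCC1) arrays 1 and 3 had one sign and arrays 2 and 4 the other, which is also how the dyes were assigned. Those are 22.9% of the 35, against 28.5% of all genes with 4 ratios in that comparison. FTR1 and YAP5 were also called with the authors' processed signals, and FTR1 alone with median centring. Both comparisons hold the double mutant strain, so their values are set side by side for each gene and not combined.

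**Figure D2:**
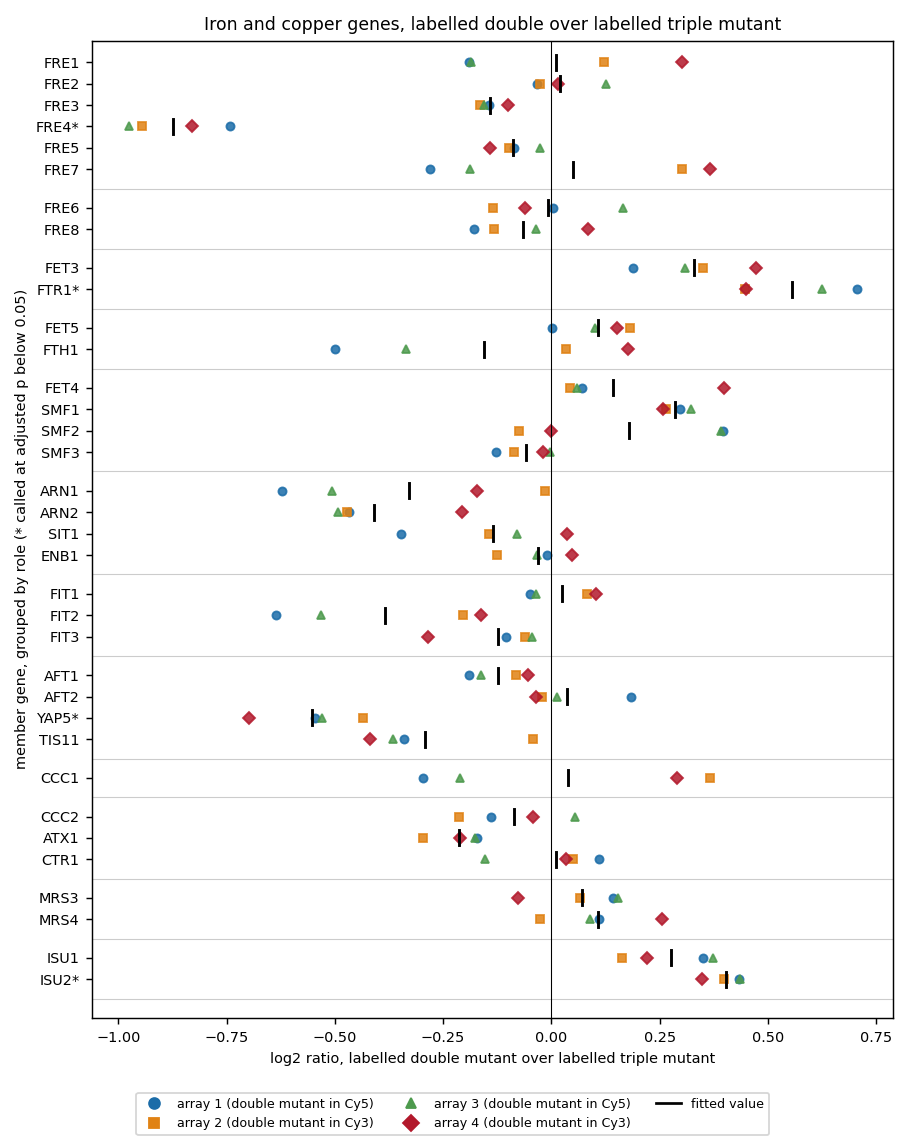
Log2 ratio of the labelled double mutant over the labelled triple mutant channel (x axis) for each of the 35 genes (y axis, grouped by role). Each coloured point is 1 of the 4 arrays, the black bar is the fitted value and a star marks genes called at adjusted p below 0.05; FRE4 and YAP5 lie to the left at -0.87 and -0.55, FTR1 and ISU2 to the right at 0.56 and 0.40, and all signs turn if the channel labels are exchanged.

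Among the 6 surface reductases only FRE4 was called, in both comparisons. FRE4 (YNR060W) encodes a reductase of siderophore-bound iron. Its normalised intensity was 634, 736, 789 and 268 units in the double mutant on arrays 1 to 4, against 341, 381, 339 and 103 units in wild type. Within each array the double mutant was the brighter channel, but the groups overlapped, because both channels were dimmest on array 4. The log2 ratios were 0.89, 0.95, 1.22 and 1.37, giving 1.11 ± 0.226 (SD, n = 4), a 2.16-fold rise with an adjusted p of 0.000422. In the other comparison FRE4 had 400, 620, 400 and 194 units in the channel labelled double mutant, against 670, 1194, 787 and 345 units in the channel labelled triple mutant. The channel labelled double mutant was the dimmer on every array, and the groups overlapped across arrays. The log2 ratios were -0.74, -0.95, -0.98 and -0.83, giving -0.87 ± 0.107 (adjusted p = 0.00235). FRE4 was called in all 8 fits that left out 1 array, in both comparisons. Between the labelled mutants it lost its call with the authors' processed signals (-0.94, adjusted p = 0.310). Median centring in place of loess also lost that call (-0.88, adjusted p = 0.0558).

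The other surface reductases were not called. FRE1, the main ferric and cupric reductase together with FRE2, had high intensities of 5343 to 7179 units in the double mutant, against 5935 to 7783 units in wild type. Its log2 ratio was -0.12 ± 0.306 against wild type (adjusted p = 0.288) and 0.01 ± 0.242 between the labelled mutants (adjusted p = 0.965). FRE2, at 112 to 132 units in the double mutant and 112 to 155 units in wild type, gave -0.09 and 0.02. FRE3, a second reductase of siderophore iron, was positive on arrays 1 to 3 against wild type and -0.05 on array 4, with a fitted 0.20 ± 0.198 (adjusted p = 0.102). FRE3 was negative on all 4 arrays between the labelled mutants, at -0.10 to -0.17 (adjusted p = 0.354). FRE5 and FRE7, predicted reductases, gave 0.09 and -0.19 against wild type, and -0.09 and 0.05 between the labelled mutants. Both intracellular family members, the vacuolar reductase FRE6 and the predicted reductase FRE8, lay at 0.06 and 0.09 against wild type, and at -0.01 and -0.07 between the labelled mutants.

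In the high-affinity oxidase and permease pair, FTR1 was called in both comparisons and FET3 in neither. FTR1 (YER145C), the iron permease, had 2250, 2164, 2387 and 1985 units in the double mutant, against 3053, 3157, 3081 and 3418 units in wild type. Every wild-type value lay above every double mutant value. The log2 ratios were -0.44, -0.54, -0.37 and -0.78, giving -0.53 ± 0.182, a 1.45-fold lower level (adjusted p = 0.00139). On the arrays of the labelled mutants FTR1 had 3285, 316, 3386 and 3339 units in the channel labelled double mutant, against 2015, 232, 2195 and 2446 units in the channel labelled triple mutant. The channel labelled double mutant was the brighter on every array, and leaving aside the dim array 2 the groups did not overlap. The log2 ratios of 0.71, 0.45, 0.63 and 0.45 gave 0.56 ± 0.130 (adjusted p = 0.00194), and without array 2 the value was 0.55 (adjusted p = 0.0230).

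FET3, the multicopper ferroxidase that works with Ftr1, was negative on all 4 arrays against wild type but unevenly so. Its log2 ratios were -0.04, -0.01, -0.46 and -0.65, giving -0.29 ± 0.316 (adjusted p = 0.144), and without array 4 the value was -0.14 (adjusted p = 0.300). The same ratios between the labelled mutants were 0.19, 0.35, 0.31 and 0.47, giving 0.33 ± 0.118 (adjusted p = 0.206). The vacuolar counterparts were not called: FET5, an oxidase, gave 0.09 and FTH1, a permease, gave -0.01 against wild type, and 0.11 and -0.16 between the labelled mutants. FTH1 was positive on arrays 2 and 4 and negative on arrays 1 and 3 of the second comparison, with -0.50 as its lowest and 0.18 as its highest ratio.

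Of the low-affinity and Nramp metal transporters, SMF3 was called against wild type. SMF3 (YLR034C), which exports iron from the vacuole, had 775, 863, 969 and 929 units in the double mutant, against 550, 634, 775 and 832 units in wild type. The double mutant was the brighter channel on every array, with values that overlapped across arrays. Log2 ratios on arrays 1 to 4 were 0.49, 0.45, 0.32 and 0.16, giving 0.36 ± 0.150, or 1.28-fold (adjusted p = 0.0130). Without array 1 of that comparison the value was 0.31 and was no longer called (adjusted p = 0.0675). SMF3 gave -0.06 ± 0.0588 between the labelled mutants (adjusted p = 0.757). SMF1, a surface transporter of manganese and other divalent metals, was positive on all 8 arrays, at 0.18 ± 0.148 against wild type (adjusted p = 0.102) and 0.29 ± 0.0296 between the labelled mutants (adjusted p = 0.0574). SMF2, an Nramp transporter of intracellular vesicles, gave 0.08 and 0.18, and FET4, the low-affinity iron transporter, gave 0.05 and 0.14.

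The 4 siderophore transporters all had a positive fitted ratio against wild type and a negative one between the labelled mutants, and ARN2 against wild type was the only call. ARN2 (YHL047C), a transporter of triacetylfusarinine C, had 433, 421, 438 and 323 units in the double mutant, against 325, 310, 287 and 306 units in wild type. On arrays 1 to 3 the channels stood apart, whereas on array 4 they nearly coincided. Array by array, the log2 ratios were 0.41, 0.44, 0.61 and 0.08, giving 0.39 ± 0.222, or 1.31-fold (adjusted p = 0.0342). ARN2 lost its call in 6 of the 8 fits that left out 1 array (arrays 1, 2 or 3 of either comparison), with values of 0.31 to 0.39 and adjusted p up to 0.121. Its ratios between the labelled mutants were -0.47, -0.47, -0.49 and -0.21, giving -0.41 ± 0.135 (adjusted p = 0.0689).

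ARN1, a ferrichrome transporter, had 1380, 1450, 1544 and 1292 units in the double mutant, against 852, 1007, 1245 and 1131 units in wild type. The lowest double mutant value lay above the highest wild-type value, yet the test missed the threshold, at 0.43 ± 0.225 (adjusted p = 0.0506). ARN1 between the labelled mutants gave -0.62, -0.01, -0.51 and -0.17, for -0.33 ± 0.283 (adjusted p = 0.207). SIT1, a ferrioxamine B transporter, had log2 ratios of 0.50, 0.46, 0.12 and -0.47 against wild type (fitted 0.15, adjusted p = 0.573). Its wild-type intensity was 2186 units on array 4, against 1038 to 1600 units on the other arrays. ENB1, the enterobactin transporter, was near background, with 3 of 4 double mutant channels and 2 of 4 wild-type channels well above it, and its fitted ratio of 0.14 ± 0.658 carried the widest spread of the siderophore transporters.

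The cell wall mannoproteins FIT1, FIT2 and FIT3, which hold siderophore iron at the wall, were not called in either comparison. FIT2 had 1002, 1003, 1215 and 695 units in the double mutant, against 715, 819, 866 and 1093 units in wild type, with log2 ratios of 0.49, 0.29, 0.49 and -0.65. FIT3 had 2057, 1853, 2568 and 1254 units in the double mutant, against 1450, 1415, 1489 and 1691 units in wild type, with log2 ratios of 0.50, 0.39, 0.79 and -0.43. For both genes the double mutant was brighter on arrays 1 to 3 and dimmer on array 4, where the double mutant had its lowest and wild type its highest value. The fitted values were 0.15 ± 0.546 for FIT2 (adjusted p = 0.651) and 0.31 ± 0.523 for FIT3 (adjusted p = 0.209). FIT1, at 84 to 104 units in the double mutant and 83 to 98 units in wild type, gave 0.08 ± 0.124. The fitted values of FIT1, FIT2 and FIT3 between the labelled mutants were 0.03, -0.38 and -0.12.

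Of the 4 regulators, YAP5 was called in both comparisons and AFT1, AFT2 and TIS11 in neither. YAP5 (YIR018W), the activator of the high-iron response, had 490, 455, 478 and 419 units in the double mutant, against 318, 304, 314 and 413 units in wild type. The groups did not overlap, but on array 4 the channels differed little. Log2 ratios on arrays 1 to 4 were 0.62, 0.58, 0.60 and 0.02, giving 0.46 ± 0.292, or 1.37-fold (adjusted p = 0.0241). The call was lost without array 1, 2 or 3 of that comparison or array 3 of the other, with values of 0.37 to 0.46 and adjusted p up to 0.110. On the arrays of the labelled mutants YAP5 had 301, 236, 354 and 319 units in the channel labelled double mutant, against 439, 319, 511 and 518 units in the channel labelled triple mutant. It was the dimmer channel on each of the 4 arrays. Array by array, the log2 ratios were -0.55, -0.44, -0.53 and -0.70, giving -0.55 ± 0.109 (adjusted p = 0.0310), a call lost in 6 of the 8 fits without 1 array (arrays 1 and 3 of the comparison with wild type, and each array between the labelled mutants), with values of -0.63 to -0.52 and adjusted p up to 0.230.

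TIS11, which encodes an RNA-binding protein that speeds the decay of messages for iron-using proteins, had 654, 602, 701 and 400 units in the double mutant, against 394, 448, 401 and 495 units in wild type. It was brighter in the double mutant on arrays 1 to 3 and dimmer on array 4, with a fitted 0.41 ± 0.507 (adjusted p = 0.134). It was negative on all 4 arrays between the labelled mutants, at -0.29 ± 0.170 (adjusted p = 0.427), and at -0.45 without the dim array 2 (adjusted p = 0.333). AFT1, the main activator of iron uptake genes, was slightly negative on all 8 arrays, at -0.20 ± 0.136 against wild type (adjusted p = 0.0839) and -0.12 ± 0.0651 between the labelled mutants (adjusted p = 0.402). Its paralogue AFT2 lay between -0.04 and 0.10 on arrays 1 to 3 against wild type and at -0.81 on array 4, where its wild-type channel read 1109 units, against 438 to 563 units on the other arrays.

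ISU2 (YOR226C), which encodes the lesser of the scaffold proteins on which mitochondria build iron-sulfur clusters, was called in both comparisons. It had 655, 491, 518 and 604 units in the double mutant, against 813, 751, 690 and 960 units in wild type. The groups did not overlap. Log2 ratios on arrays 1 to 4 were -0.31, -0.61, -0.41 and -0.67, giving -0.50 ± 0.168, a 1.42-fold lower level (adjusted p = 0.00157). On the arrays of the labelled mutants ISU2 had 687, 954, 716 and 751 units in the channel labelled double mutant, against 509, 724, 529 and 590 units in the channel labelled triple mutant. The channel labelled double mutant was the brighter on every array, by log2 ratios of 0.43, 0.40, 0.44 and 0.35, giving 0.40 ± 0.0410 (adjusted p = 0.00878). This second call was lost without any 1 of the 4 arrays of that comparison, with values of 0.37 to 0.43 and adjusted p up to 0.103. ISU1, the main scaffold gene, was not called. Its wild-type channel read 9577 units on array 4, against 3089 to 3596 units on arrays 1 to 3, and its log2 ratios were 0.06, -0.28, -0.13 and -1.59.

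The remaining genes were not called. CCC1, the vacuolar iron importer and a target of Yap5, had log2 ratios of 0.04, -0.17, -0.36 and -0.57 against wild type, giving -0.27 ± 0.260 (adjusted p = 0.249), and 0.04 ± 0.339 between the labelled mutants. Copper reaches Fet3 through the surface transporter Ctr1, the chaperone Atx1 and the Golgi pump Ccc2. CTR1 gave -0.14, ATX1 0.07 and CCC2 0.11 against wild type, and 0.01, -0.21 and -0.09 between the labelled mutants. ATX1 was negative on all 4 arrays between the labelled mutants (adjusted p = 0.0936). The mitochondrial iron carriers MRS3 and MRS4 gave -0.01 and -0.02 against wild type, and 0.07 and 0.11 between the labelled mutants.

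**Figure D3:**
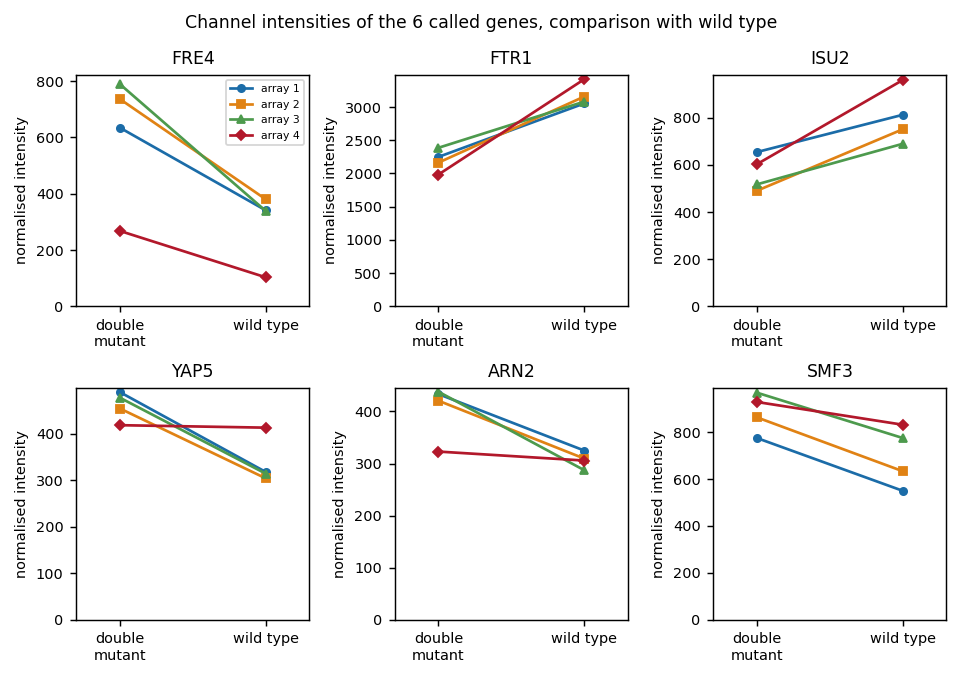
Normalised channel intensity (y axis, linear, from 0) of the 6 called genes in the double mutant (left) and wild type (right). Each point is a channel and each line joins the channels of 1 array; FTR1 and ISU2 slope upward to wild type on all 4 arrays, the other genes slope downward, and the YAP5 and ARN2 lines of array 4 are nearly level.

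The number of iron genes called against wild type depended on array 4. Without it 13 of the 35 were called, with a background of 12.8% of all genes; 11 of the 13 were higher in the double mutant (background 5.86%) and 2 lower (background 6.90%). The added genes were TIS11 at 0.64 (adjusted p = 0.00291), ARN1 at 0.56 (adjusted p = 0.00670), FIT3 at 0.53 (adjusted p = 0.00219), FIT2 at 0.45 (adjusted p = 0.0133), SIT1 at 0.38 (adjusted p = 0.0201), FRE3 at 0.27 (adjusted p = 0.0200) and FRE6 at 0.22 (adjusted p = 0.0396). All 7 had a higher level in the double mutant in that fit, and the 6 genes called with all arrays were called there too. By role, 3 of 4 siderophore transporters (median 0.44), 2 of 3 mannoproteins (median 0.45) and 2 of 4 regulators (median 0.30) were then higher, as were 2 of 6 surface reductases (median 0.02), 1 of 2 intracellular reductases (median 0.12) and 1 of 4 low-affinity and Nramp transporters (median 0.09). The oxidase and permease pair and the scaffold pair each had 0 higher and 1 lower (median -0.31 in both). The vacuolar oxidase and permease, CCC1, the copper delivery genes and the mitochondrial carriers were not called in that fit. Values of other uncalled genes also moved without array 4, to -0.05 for FRE7, -0.06 for FRE1, -0.11 for CCC1, -0.13 for AFT1, 0.00 for AFT2 and -0.15 for ISU1. FRE3, FIT2 and FIT3 lie next to each other on chromosome XV, followed by FRE5. FRE3, FRE6, SIT1, FIT2, FIT3 and TIS11 were the 6 genes, 17.1% of the 35, that were positive on arrays 1 to 3 and negative on array 4, a pattern held by 6.70% of all genes with 4 ratios. The part of array 4 in these differences was not tested beyond leaving it out.

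**Figure D4:**
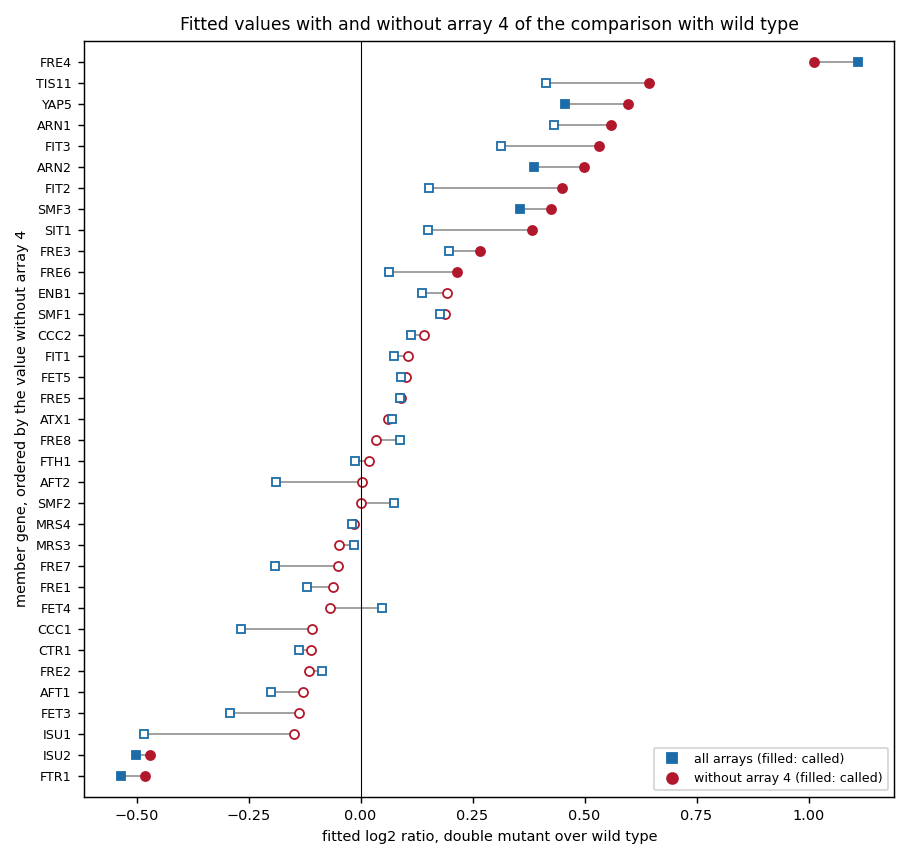
Fitted log2 ratio of double mutant over wild type (x axis) for the 35 genes (y axis, ordered by the value without array 4), with all arrays (squares) and without array 4 of that comparison (circles); filled symbols were called at adjusted p below 0.05. The number of filled symbols is 13 without array 4 and 6 with all arrays.

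The same array entered the spread of the other comparison. Without it 11 of the 35 genes were called between the labelled mutants, with a background of 7.32% of all genes. As labelled, FTR1, ISU2, FET3, SMF1 and ISU1 were then higher, and FRE4, YAP5, ARN1, ARN2, FIT2 and ATX1 lower. The fitted values in that comparison are those given above, since array 4 bears on them only through the spread. Without the dim array 2 of the comparison between the labelled mutants, 2 genes were called, FTR1 and FRE4, with a background of 0.572%. FRE4 was at -0.84 in that fit (adjusted p = 0.0241).

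Genes that work beside these 35 were counted in 5 further lists, described by counts and medians alone. Over all genes 3.25% were higher and 4.97% lower against wild type, and 1.05% higher and 0.541% lower between the labelled mutants. Of 15 tested genes of iron regulation and other Aft1 or Yap5 targets, 1 was higher and 3 lower in the double mutant against wild type (median -0.11). HMX1, the heme oxygenase, rose by 0.43 ± 0.115 (adjusted p = 0.0153), and its ratio between the labelled mutants was -0.52 ± 0.210 (adjusted p = 0.0213), the only call of the list there (median 0.01). GRX4, a glutaredoxin that passes the iron signal to Aft1, fell to 385 to 462 units in the double mutant, against 475 to 646 units in wild type (log2 ratio -0.36 ± 0.277, adjusted p = 0.0194). The biotin transporter VHT1 (-0.89, adjusted p = 0.0480) and the autophagy gene ATG41 (-1.49, adjusted p = 0.0248) were also lower. Array 4 held the most negative ratio of both, at -2.02 and -3.12, and without it they were -0.51 and -0.95 and still called. Without array 1 or array 3 of the comparison with wild type, HMX1, GRX4, VHT1 and ATG41 lost that call, and VHT1 lost it also without any 1 of the 4 arrays of the other comparison. The call of HMX1 between the labelled mutants was lost without array 1, 3 or 4 of that comparison.

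Of 27 genes of iron-sulfur cluster assembly, 0 were higher and 2 lower against wild type by limma's test (median -0.09, 24 of 27 negative, against 52.7% negative over all genes). They were YAH1, the mitochondrial ferredoxin, at -0.44 ± 0.369 (adjusted p = 0.0286), and IBA57, a late maturation factor, at -0.46 ± 0.309 (adjusted p = 0.0393). Of 8 fits without 1 array, YAH1 was called in 2 and IBA57 in 1. Of 11 iron-sulfur enzymes, 0 were higher and 5 lower (median -0.42, 10 of 11 negative). They included SDH2 of succinate dehydrogenase at -0.64 ± 0.425 (adjusted p = 0.0249), ILV3 of branched-chain amino acid synthesis at -0.47 ± 0.253 (adjusted p = 0.0121) and LYS4 of lysine synthesis at -0.43 ± 0.360 (adjusted p = 0.0310). SDH2 lost its call without array 3 of the comparison with wild type, ILV3 without its array 1, and LYS4 in 5 of the 8 fits. Without array 4, SDH2 was at -0.43 and still called. Between the labelled mutants, 0 of the assembly genes were called by limma (median 0.03). Of these 27 genes 5 had an unadjusted p under 0.05 there, against 14.6% of all genes. In the same comparison 1 of the 11 enzymes was called, the Rieske protein RIP1 at 0.41 ± 0.140 (adjusted p = 0.0269, median of the list 0.17). RIP1 lost that call without any 1 of the 4 arrays of that comparison.

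Of 10 genes of copper handling, 2 were higher and 1 lower against wild type (median 0.06). The metallothionein genes CUP1-1 (0.43, adjusted p = 0.0159) and CUP1-2 (0.41, adjusted p = 0.00863) were higher, but they are near-identical copies whose probes cannot be taken to tell them apart, so these calls may not be separate. CUP1-1 was at 0.38 without array 2 of that comparison and lost its call (adjusted p = 0.0513). COX17, a copper chaperone for cytochrome oxidase, was lower at -0.49 ± 0.0564 (adjusted p = 0.00356), with 383 to 640 units in the double mutant, against 511 to 888 units in wild type. Between the labelled mutants 0 of the 10 were called by limma (median 0.04). An unadjusted p under 0.05 was found there for 2 of the 10 and for 14.6% of all genes. Of 7 genes that sort or break down metal transporters, 0 were called in either comparison by limma. At an unadjusted p under 0.05 there was 1 against wild type (24.6% of all genes) and 0 between the labelled mutants (14.6% of all genes).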

How the data were processed

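Total RNA was labelled with Cy3 and Cy5 by aminoallyl coupling, per the labels' protocols, and per the file headers the authors read the scanned slide with Feature Extraction 10.7.3.1 of Agilent. The deposited files hold, per spot and channel, a mean and a background intensity, a processed intensity that the authors had dye-normalised, and flags of 0 or 1 for spots well above background, saturated or outlying. The 8 per-sample columns of the deposited table of normalised values were not used, because no title or description of an array carries their names.

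Mean intensities were background-corrected (normexp, offset 50) and loess-scaled within arrays with limma 3.58.1 in R 4.3.3, with no weight for 536 control spots and with outlying spots missing. Probes well above background in at least 4 of 16 channel measurements were kept (12872 of 13092), and the brighter kept probe stood for a gene. The fit on Cy5 over Cy3 had a common dye term and a coefficient for each comparison (5 residual degrees of freedom), and limma's moderated p-values were Benjamini-Hochberg adjusted over 6465 genes, with 60 missing spots left out. The double mutant was in Cy5 on arrays 1 and 3 and in Cy3 on arrays 2 and 4 of each comparison. Channel levels are intensities after loess and scaling between arrays, open to dye bias. They are set only against other channels of the same gene, on the same array or on other arrays. All 8 arrays shared a slide and scan, with each comparison in its own row of the slide. The labels do not say whether arrays came from separate cultures, so the spread behind the p-values is that between arrays and may be technical, and the number of arrays limits precision.

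The 35 genes and the 5 further lists (72 genes, of which 70 were tested; LSO1 and LSO2 were not tested) were chosen with earlier results of these data known. Named genes are the 35 members, PDR5, YOR1, PDR1, up to 3 called genes per direction from each list by size, and mating-type markers. RIP1 between the labelled mutants falls under the rule. Genes next to called members were taken by position alone, once the calls were known. Any other gene named was chosen after its values were seen. Symbols and gene neighbours came from a RefSeq table. Promoter sequences were not analysed here. The procedure was tested on simulated data. Alternatives tried were other background corrections, scalings, probe filters, dye terms, blocks, quality weights, the mean over probes, the 4 arrays of a comparison alone and each array left out; leaving out array 4 of the comparison with wild type together with array 2 of the other was added after seeing the data.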

Additional observations from a re-analysis of the deposited data

Results flagged for a closer look

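In each comparison the 4 ratios of each of the 35 genes were examined for an array far from the other 3, by Dixon's test at the 95% level (its gap to the nearest array over the range). Of 70 sets of 4 ratios 7 had one, and chance alone passes about 5% of sets. The share passing among all genes was not computed, so the count is not read as particular to these genes. Against wild type, array 4 stood apart for FRE6 (-0.462), AFT2 (-0.81) and YAP5 (0.0184), each below arrays 1 to 3. Array 1 stood above the others for SMF1 (0.396), and array 2 below them for SMF2 (-0.0579). Between the labelled mutants array 4 stood apart for FET4 (0.399) and for ARN2 (-0.207), in both above the other arrays as labelled. Of these genes YAP5 alone was called in the comparison concerned.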

How the results depend on the processing

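Percentages in brackets here are the shares of all genes called in the same setting. Against wild type, the number of the 35 genes called was 6 as reported (8.21%) and 0 with the authors' processed signals (0.619%). It was 2 with median centring in place of loess (0.835%) and 1 with the 4 arrays of the comparison alone (0.387%). Leaving out 1 array gave 3 to 13 genes, with 3 without array 1 (3.14%) and 13 without array 4 of that comparison (12.8%). Leaving out that array 4 and array 2 of the other comparison gave 12 (10.2%). FRE4 lost its call only with the processed signals (1.29, adjusted p = 0.0969), while FTR1 kept -0.60 to -0.53 but lost its call with the processed signals, median centring and 4 arrays alone.

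Between the labelled mutants it was 4 as reported (1.59% of all genes), 2 with processed signals (0.619%) and 1 with median centring (0.325%). It was 15 with the 4 arrays alone (19.3%), 19 with quality weights (31.8%) and 2 with dye-swap pairs averaged (0.402%). Leaving out 1 array gave 2 to 11 genes, with 11 without array 4 of the comparison with wild type (7.32%). It gave 2 without any 1 of the 4 arrays of the labelled mutants (0.356% to 0.572%). Leaving out both arrays that stand apart gave 7 (3.33%). FTR1 was called in every setting tried here. Turning all signs left 2 genes in each direction. No call of the 35 genes changed sign in any setting, and their median kept within the spread of the arrays.

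Arrays with the same number were not treated as pairs, because not every number had a correlation over 0.1. With the dye term removed, the correlation of their deviations was -0.692, 0.0179, -0.621 and -0.588 for numbers 1 to 4. With the labels of the second comparison exchanged it was 0.692, -0.0179, 0.621 and 0.588, so number 2 is near 0 in both readings. The dye term removed was common to both comparisons, and arrays of the same number had the same dye assignment. A dye effect that differed between the comparisons would stay in these values, as labelled with opposite signs. These correlations therefore cannot decide on pairing or on the labels. As measured, with the dye effect left in, the correlations as labelled were -0.175, 0.202, 0.0692 and -0.0611. With the replicate number as a block, taken as labelled, 4 genes were called against wild type (3.77% of all genes). Between the labelled mutants 3 were called (0.619%). The calls lost were ARN2 (adjusted p = 0.0981) and SMF3 (0.0515) against wild type and ISU2 (0.0622) between the labelled mutants. Over all genes, calls against wild type numbered 531 as reported, 40 with processed signals, 54 with median centring, 25 with the 4 arrays alone, 277 with quality weights, 244 with the block, 203 to 825 without 1 array and 661 without both. Between the labelled mutants they numbered 103 as reported, then 40, 21, 1247, 2055, 40, 23 to 473 and 215 in the same settings, and 26 with dye-swap pairs averaged.

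Signal over background limits ENB1 most: between the labelled mutants 1 of 4 channels of each label was well above it.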

Other observations

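The genes beside each called gene were read in the same fit, chosen by position alone. Next to FRE4 lies YNR061C, which was higher in the double mutant than in wild type by a log2 ratio of 0.34 ± 0.190 (SD, n = 4; adjusted p = 0.0308), and on the other side MNT4, a mannosyltransferase gene, at -0.17 (adjusted p = 0.270). Next to ARN2 lies COS8, which was higher at 0.21 ± 0.151 (adjusted p = 0.0319), and on the other side PAU13 at 0.04 (adjusted p = 0.719). Between the labelled mutants none of these 4 neighbours was called, with values of -0.14 to 0.07. The neighbours of FTR1, YAP5, SMF3 and ISU2 were called in neither comparison.

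The array holds a second kept probe for 34 of the 35 genes, all but ENB1. In each comparison 33 of the 34 second probes gave the sign of the first, and the fitted values of a gene's probes differed by at most 0.0707 against wild type and 0.217, for TIS11, between the labelled mutants.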
